A study of Mus musculus with 2 samples.

Results

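Among cells of the adult CD-1 mouse arcuate nucleus and median eminence was a small set of neurons in which at least 2 of 5 immature neuron genes were detected: Dcx, Sox11, Sox4, Cd24a and Igfbpl1. These 72 cells were chosen by their own counts. A cell needed at least 300 genes, at most 20% of its unique molecular identifiers (UMIs, each standing for 1 captured transcript) in mitochondrial genes, and at least 2 of 7 neuron genes (Snap25, Syt1, Stmn2, Stmn3, Elavl4, Tubb3 and Snhg11). It also needed at least 2 of the 5 immature markers and 0 UMIs of Mog, Pdgfra and Rax, which mark oligodendrocytes, their precursors and tanycytes. In all 3889 cells passed the gene and mitochondrial limits, and 1493 of them were neurons without those 3 genes. The 72 were 31 wild type (WT) and 41 Irx3/5dHet cells.

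Cells were profiled by Drop-seq, in which droplets pair a cell with a barcoded bead and the 3' ends of its transcripts are counted. The WT library pooled 7 mice and the Irx3/5dHet library pooled 5, all CD-1 mice 7 to 8 weeks old. The genotype of the latter is given as Irx3/5+/-, that is, heterozygous for the homeobox genes Irx3 and Irx5. Both libraries came from microdissected tissue that was sorted for live cells. With 1 pooled library per genotype there is no replicate, so no p-value is given, and every interval is an exact 95% interval for counting error only.

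Young neurons leave a dividing precursor, extend processes and then build synapses. Doublecortin (Dcx) binds the microtubules of migrating neuroblasts, Sox4 and Sox11 are transcription factors that turn on neuronal genes in new neurons, Cd24a is a surface glycoprotein of young neurons, and Igfbpl1 is a secreted protein of neuronal progenitors. In the adult hypothalamus, tanycytes and other precursors are known to give rise to a few new neurons. None of the 5 genes is restricted to young neurons: Sox4 and Cd24a are known in many epithelial and immune cells, and Dcx persists at a low level in some mature neurons.

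In the GRCm38 build (GENCODE annotation), Dcx spans 143855842 to 143933311 on the minus strand of chromosome X, with 5 to 7 exons. Sox11 (chromosome 12, 27334264 to 27342574) and Sox4 (chromosome 13, 28948919 to 28953713) are single-exon genes on the minus strand. The lincRNA Gm26735 overlaps Sox4 on the other strand, and no source used here says whether the counting used strand. Cd24a lies on chromosome 10 from 43578284 to 43584265 on the plus strand, and Igfbpl1 on chromosome 4 from 45809468 to 45826923 on the minus strand.

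The rule does not establish that these 72 cells are immature neurons, and they are called here cells with 2 or more markers. Most marker detections rested on 1 UMI, and the cells lay among the deeper neurons. The rule used the marker counts, and the share that met it rose with depth, so neither speaks to maturity. A neuropeptide gene reached 5 or more UMIs in 41 of 72, among them a dividing cell. Like-depth neurons reached it about as often (18 of 31 in WT and 22 of 41 in Irx3/5dHet). The maturity of the cells was not tested.

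Sox11 and Sox4 chose most of the cells. Sox11 was detected in 24 of 31 WT cells with 38 UMIs and in 27 of 41 Irx3/5dHet cells with 34 UMIs. Sox4 was detected in 22 WT cells with 29 UMIs and in 27 Irx3/5dHet cells with 40 UMIs. All but 1 WT and 2 Irx3/5dHet cells had at least one of this pair, and 16 WT and 15 Irx3/5dHet cells had both. Dcx, the marker most tied to migrating neuroblasts, was detected in 7 WT cells with 8 UMIs and in 15 Irx3/5dHet cells with 16 UMIs. No cell had more than 2 UMIs of Dcx. Cd24a gave 18 UMIs in 10 WT cells and 64 UMIs in 16 Irx3/5dHet cells, of which 27 UMIs lay in 1 cell. Igfbpl1 gave 1 UMI in 1 WT cell and 2 UMIs in 2 Irx3/5dHet cells.

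The rule was met narrowly. Exactly 2 markers were found in 29 of 31 WT and 36 of 41 Irx3/5dHet cells, and 13 WT and 16 Irx3/5dHet cells had 1 UMI of each and no more. The median cell had 3 marker UMIs in both libraries. Just outside the rule, 181 WT and 158 Irx3/5dHet neurons had 1 marker, at a single UMI in 132 and 113 of them. A second UMI from another of the 5 genes would have placed any of these in the set. The plot of marker UMIs per cell shows how thin the counts are.

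**Figure D1:**
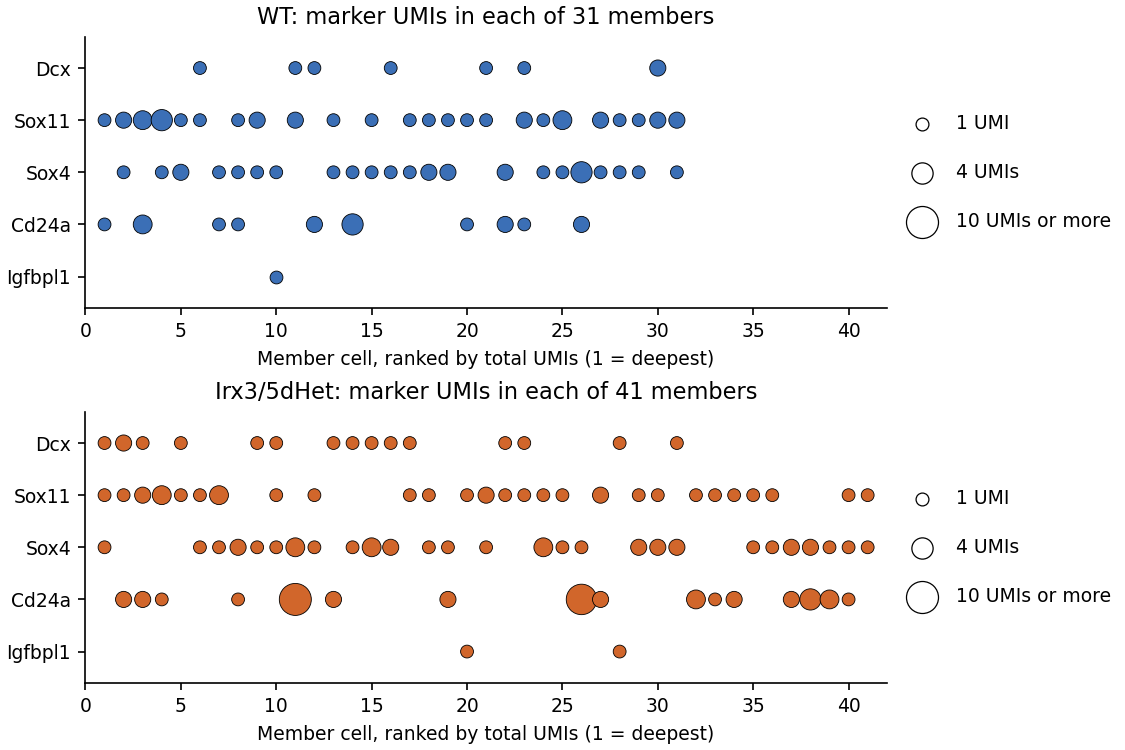
Marker UMIs (circle area rises with UMIs up to 10) in each WT (top) and Irx3/5dHet (bottom) cell, with cells ranked on the x axis by total UMIs and the 5 markers on the y axis. Most circles are of the 1 UMI size, and the large Cd24a circles in the lower panel include the cell with 27 UMIs.

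The share of neurons that met the rule rose with depth. In WT it was 31 of 807 neurons (3.84%, 2.62 to 5.41) and in Irx3/5dHet 41 of 686 (5.98%, 4.32 to 8.02), with overlapping intervals. Their median of 4462 UMIs in WT and 4334 in Irx3/5dHet compared with 1701 and 1759 in the other neurons. Among neurons under 1000 UMIs the share was 1.23% in WT (3 of 244) and 0.515% in Irx3/5dHet (1 of 194). Among neurons with 4000 to 8000 UMIs it was 8.40% (10 of 119) and 12.3% (16 of 130), and from 8000 UMIs 20.7% (6 of 29) and 28.6% (8 of 28). Of the 72 cells, 14 WT and 16 Irx3/5dHet cells lay among the 5% of barcodes with most UMIs in their library.

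**Figure D2:**
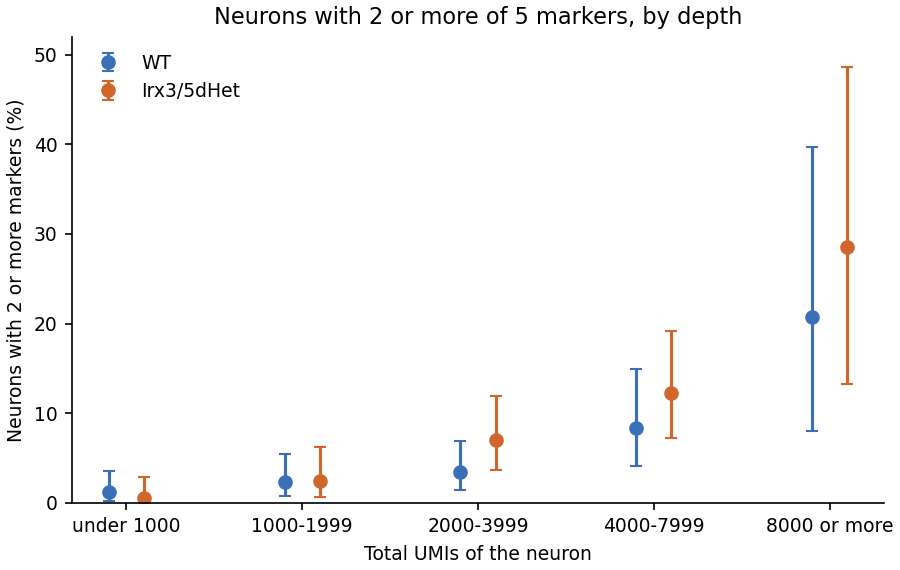
Percent of neurons with 2 or more of the 5 markers (y axis) by total UMIs of the neuron (x axis), with exact 95% intervals for counting error, for WT and Irx3/5dHet. The share rises from 1.23% to 20.7% in WT and from 0.515% to 28.6% in Irx3/5dHet, and the intervals of the 2 libraries overlap in each depth range.

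After each neuron was thinned to 1000 UMIs, 5 of 563 WT neurons (0.888%, 0.289 to 2.06) and 6 of 492 Irx3/5dHet neurons (1.22%, 0.449 to 2.64) met the rule. The 244 WT and 194 Irx3/5dHet neurons under that depth were left out. By single marker, Sox11 was then detected in 7.10% of WT and 5.08% of Irx3/5dHet neurons, Sox4 in 6.04% and 5.89%, Cd24a in 1.78% and 3.46%, and Dcx in 0.888% and 1.83%. All 4 pairs of intervals overlapped, and the order of the libraries differed between markers. Igfbpl1 was at 0.355% and 0.407%.

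The same markers occurred in cells with fewer than 2 neuron genes, taken as another class where 4 or more of its markers were detected. Mature oligodendrocytes, which should lack these genes, had 2 or more markers in 2 of 255 WT (0.784%) and 0 of 123 Irx3/5dHet cells, for which the exact interval reaches 2.95%. Their median depth of 1259 and 1112 UMIs was below that of the neurons (1748 and 1894.5). Ependymal cells, the ciliated lining of the ventricle, reached 9.66% in WT (14 of 145) and 6.85% in Irx3/5dHet (5 of 73). Cd24a was detected in 59.3% and 45.2% of them, and Dcx in none. Oligodendrocyte precursor cells reached 5.04% (7 of 139) and 15% (6 of 40) at 1291 and 777.5 median UMIs. Microglia had Sox4 in 20.8% and 18.6% of cells and no cell with 2 markers. The share in neurons stood above that of oligodendrocytes, at depths that differ, with intervals that overlapped in WT only. In neurons thinned to 1000 UMIs it was 0.888% in WT and 1.22% in Irx3/5dHet. Those intervals overlapped the ones of oligodendrocytes, which were not thinned, in both libraries. Without thinning, the share in neurons was below the shares of ependymal cells and of oligodendrocyte precursors in both libraries. The intervals of the neurons overlapped those of these 2 classes.

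The 7 neuron genes belong to the rule, so their detection describes the cells and is no check of their identity. At least 5 were detected in 21 of 31 WT and 28 of 41 Irx3/5dHet cells. For comparison each cell was paired with the other neuron of its library nearest in total UMIs (within 20%), which gave 31 and 41 like-depth neurons with 0 or 1 marker and medians of 4461 and 4344 UMIs. Of these, 22 of 31 and 34 of 41 had 5 or more neuron genes. Both libraries shared 3 barcodes, none of them among the 72 cells.

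A few of the 72 cells had few neuron genes. Exactly 2 neuron genes were found in 3 WT and 4 Irx3/5dHet cells, against 2 and 1 like-depth neurons. All 4 of those Irx3/5dHet cells had 5 to 7 of the 7 ependymal markers, such as the cilium genes Ccdc153 and Tmem212, and met the rule through Sox4 and Cd24a with no Dcx. They included the cell with 27 Cd24a UMIs, which had 21 UMIs of Ccdc153 and 9 of Foxj1, the master regulator of motile cilia. Of the 3 WT cells with 2 neuron genes, a pair had Epcam, an epithelial adhesion gene, at 31 and 8 UMIs. None of these 7 cells had a neuropeptide at 5 or more UMIs.

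A dividing cell also met the rule. It was an Irx3/5dHet cell with 8786 UMIs, 3 neuron genes and 13 of 16 cell division genes, among them Mki67 at 23 and Top2a at 19 UMIs. It carried 34 UMIs of Epcam, 314 of Cga and 109 of Tshb, the subunits of thyroid-stimulating hormone made in the pars tuberalis next to the median eminence. Apart from it, 1 Irx3/5dHet cell had 2 cell division genes and the remaining 70 of 72 cells had at most 1. A WT cell with 10168 UMIs joined 33 Ghrh and 37 Gal UMIs to 7 of 8 oligodendrocyte precursor markers. Barcodes with markers of another class were not particular to the 72 cells. Of 1 other class, 3 or more markers were found in 6 of 31 WT and 7 of 41 Irx3/5dHet cells. The like-depth neurons gave the same numbers, 6 of 31 and 7 of 41. For 4 or more markers it was 2 WT and 4 Irx3/5dHet cells, against 3 and 2 like-depth neurons. No doublet caller was used, and whether such barcodes hold more than 1 cell was not tested.

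**Figure D3:**
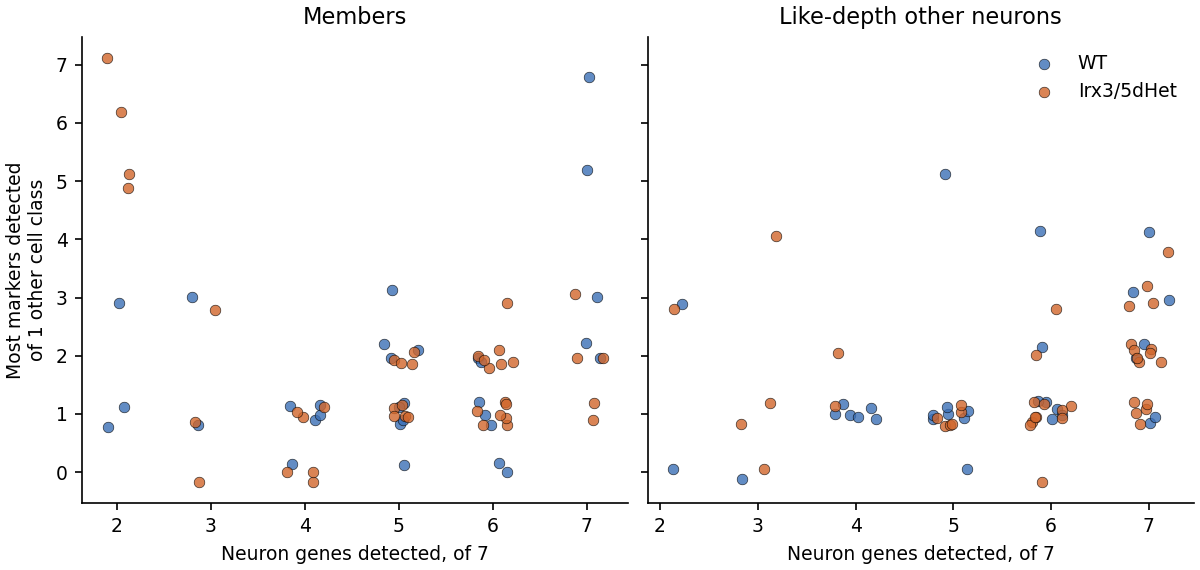
Number of the 7 neuron genes detected (x axis) against the most markers detected of any 1 other cell class (y axis), in the cells with 2 or more immature markers (left) and in like-depth other neurons (right), each point a cell with a small random offset so that equal values can be seen. The 4 Irx3/5dHet points at the upper left of the left panel are the cells with 2 neuron genes and 5 to 7 ependymal markers.

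Counted by cell, high neuropeptide levels were about as frequent as in like-depth neurons. A neuropeptide gene reached 5 or more UMIs in 17 of 31 WT and 24 of 41 Irx3/5dHet cells, against 18 of 31 and 22 of 41 like-depth neurons. The limit of 5 UMIs was set after the values were seen. In oligodendrocytes it was reached by 1 of 255 and 0 of 123 cells, but in pars tuberalis cells (3 or more markers) by 22 of 34 and 15 of 18, so it does not mark neurons alone. Cartpt, the precursor of the satiety peptide CART, was highest in 6 WT and 7 Irx3/5dHet cells. Npy, the orexigenic peptide of Agrp neurons, was highest in 1 WT and 4 Irx3/5dHet cells, and Gal in 2 and 3. Vip was highest in 3 Irx3/5dHet cells and in no WT cell, and Avp and Grp in 1 WT cell each. Cck was highest in 2 Irx3/5dHet cells, one of them the dividing cell with Cga and Tshb.

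**Figure D4:**
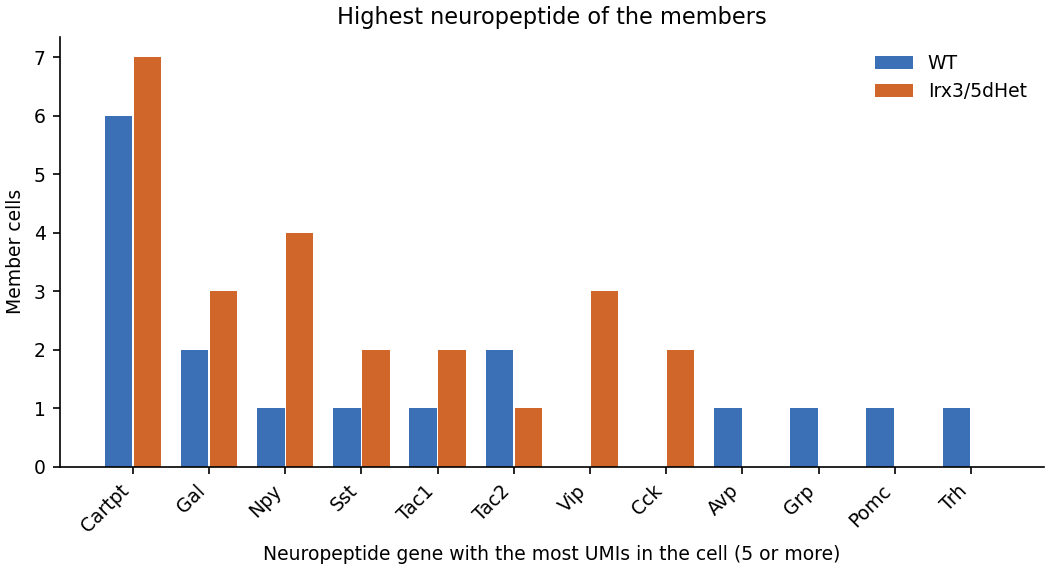
Number of cells with 2 or more immature markers (y axis) by the neuropeptide gene with the most UMIs in the cell, counted where it had 5 or more (x axis), for the WT and Irx3/5dHet libraries. Cartpt leads with 6 WT and 7 Irx3/5dHet cells, and the other cells are spread over 11 peptides.

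The cells with most markers had neuropeptide genes as well. At least 3 markers were found in 2 WT and 5 Irx3/5dHet cells, and all 7 had a neuropeptide at 5 or more UMIs. Most of them were deep, with 7533 and 2176 total UMIs in WT. In Irx3/5dHet the totals were 14410, 13868, 12875, 7081 and 1186. The WT cells had 15 UMIs of Pomc, the precursor of melanocortins, and 11 of Tac2, the precursor of neurokinin B in Kiss1 neurons. In Irx3/5dHet, one had 177 UMIs of Npy with 73 of Agrp, and one had 448 of Cartpt with 232 of Pomc. Another had 174 of Gal with 61 of Ghrh, the growth hormone-releasing hormone, and the others had 14 of Sst and 6 of Vip. Dcx was found in 22 cells, all with at least 4 neuron genes, and 16 of them had a neuropeptide at 5 or more UMIs. Neither of these 2 shares was compared with neurons of like depth.

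Some transmitter genes differed from the like-depth neurons when summed. The GABA genes Gad2 (27 UMIs against 78, log2 -1.50) and Slc32a1 (7 against 25, log2 -1.75) were lower in WT, while Gad1 had 40 against 39. In Irx3/5dHet none of these 3 genes reached a log2 ratio of 1 in size. Gad2 had 88 against 99 and Slc32a1 32 against 25. Gad1, with 34 against 68, was lower and just short of that limit (log2 -0.98). Counted by cell, a GABA gene (Gad1, Gad2 or Slc32a1) was detected in 19 of 31 WT and 30 of 41 Irx3/5dHet cells, against 21 and 29 like-depth neurons. Slc17a6, the glutamate transporter of excitatory hypothalamic neurons, was detected without a GABA gene in 5 and 5 cells, against 6 and 6. The arcuate transcription factor Isl1 was detected in 14 and 16 cells, against 14 and 18. Dlx1, a factor of developing and adult GABA neurons, was detected in 8 and 8 cells, against 4 and 7.

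Genes of growing neurons were not raised as a group. UMIs were summed over the cells and scaled to CPM, the counts per 1000000, and ratios were taken over the like-depth neurons of the same library with 0.5 added to each sum. A gene passed where the log2 ratio was at least 1 in size and its interval left out 0, among 5653 genes with 10 or more UMIs in each library. In WT 151 genes (2.67%) were higher and 125 (2.21%) lower by this rule, and in Irx3/5dHet 150 (2.65%) and 108 (1.91%). Of the 23 listed growth and cytoskeleton genes of immature neurons 18 could be compared, and none passed in either library. Their median log2 ratio was 0.12 in WT and 0.07 in Irx3/5dHet, against 0.01 and 0.01 over all genes. The median cell had 13 of them detected, as did the median like-depth neuron, in both libraries.

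Single growth genes had the following sums. Stmn1, a microtubule destabiliser of growing neurons, had 34 UMIs against 27 in WT and 80 against 66 in Irx3/5dHet (log2 ratios of 0.34 and 0.28). Tubb2b, a tubulin of migrating neurons, had 21 against 16 and 23 against 16 (0.40 and 0.52). Both ratios had intervals that include 0 in both libraries. Gap43, a growth cone protein that adult hypothalamic neurons also express, had 288 against 326 and 355 against 447 (-0.16 and -0.32). Marcksl1, an actin regulator of growing neurites, had 65 against 60 and 52 against 81 (0.13 and -0.63). The largest ratios of the list were 0.70 in WT and 0.61 in Irx3/5dHet.

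Factors of neurogenesis were sparse and divided. Of 27 listed, 9 could be compared, with a median log2 ratio of 0.25 in WT and -0.23 in Irx3/5dHet. None passed in WT. In Irx3/5dHet, Sox2, a factor of neural stem cells that some adult neurons keep, was higher (17 UMIs in 11 cells against 5 in 3, log2 1.68), and in WT it had 9 against 2. Prox1, a factor of several neuron types, was higher in Irx3/5dHet (12 against 2) but had 5 against 12 in WT. Ccnd2, a cyclin of dividing progenitors, was lower in Irx3/5dHet (4 against 15), with 8 against 5 in WT. Neurod2 and Sp8 were at 0 in all 4 sets, under a fixed floor of 3 UMIs, which does not show absence.

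Genes of mature neurons stood slightly below the like-depth level on balance. Of 32 listed, 28 could be compared. The log2 ratio was below 0 for 22 of them in WT and 17 in Irx3/5dHet, with medians of -0.35 and -0.16. The median cell had 14 of them detected in WT and 15 in Irx3/5dHet, the same as the like-depth neurons. None passed in WT. In Irx3/5dHet the neurofilament gene Nefm was higher (33 UMIs against 9, log2 1.83) and the synuclein gene Sncb lower (33 against 71, log2 -1.09). Rbfox3, which encodes the mature neuron antigen NeuN, had 13 against 21 and 25 against 31. Map2, a dendritic microtubule protein, had 64 against 58 and 70 against 65.

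Immediate early genes and neuropeptides had median ratios of opposite sign in the 2 libraries. Axon injury, identity and transmitter genes had medians above 0 in both. The median log2 ratio of 8 immediate early genes, which neurons switch on after activity or dissociation, was -0.41 in WT and 0.88 in Irx3/5dHet. That of 11 axon injury genes was 0.08 and 0.44, and that of 9 hypothalamic identity factors 0.50 and 0.69. For 14 neuropeptides it was -0.33 and 0.33, the same with Ghrh in WT held at its bound. In WT 6 of them passed as lower (Agrp, Npy, Avp, Oxt, Nts and Cck) and 2 as higher (Ghrh and Tac2). In Irx3/5dHet none passed as lower and 2 as higher (Ghrh and Gal). Single cells held much of several WT sums. Of the like-depth UMIs in WT, 1 neuron held 206 of 229 of Avp and 11 of 11 of Nts. The largest share of 1 neuron was 23 of 42 for Cck and 9 of 16 for Oxt. It was 155 of 482 for Npy and 66 of 160 for Agrp. On the higher side, 1 WT cell held all 33 UMIs of Ghrh and 1 held 11 of 20 of Tac2. Summed over the whole list, there were 876 UMIs against 1546 in WT and 2816 against 2114 in Irx3/5dHet. For 7 transmitter genes the median was 0.05 and 0.24. Of the 9 identity factors 1 passed as higher in each library, Rora in WT (16 UMIs against 3) and Pou2f2 in Irx3/5dHet (21 against 7).

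**Figure D5:**
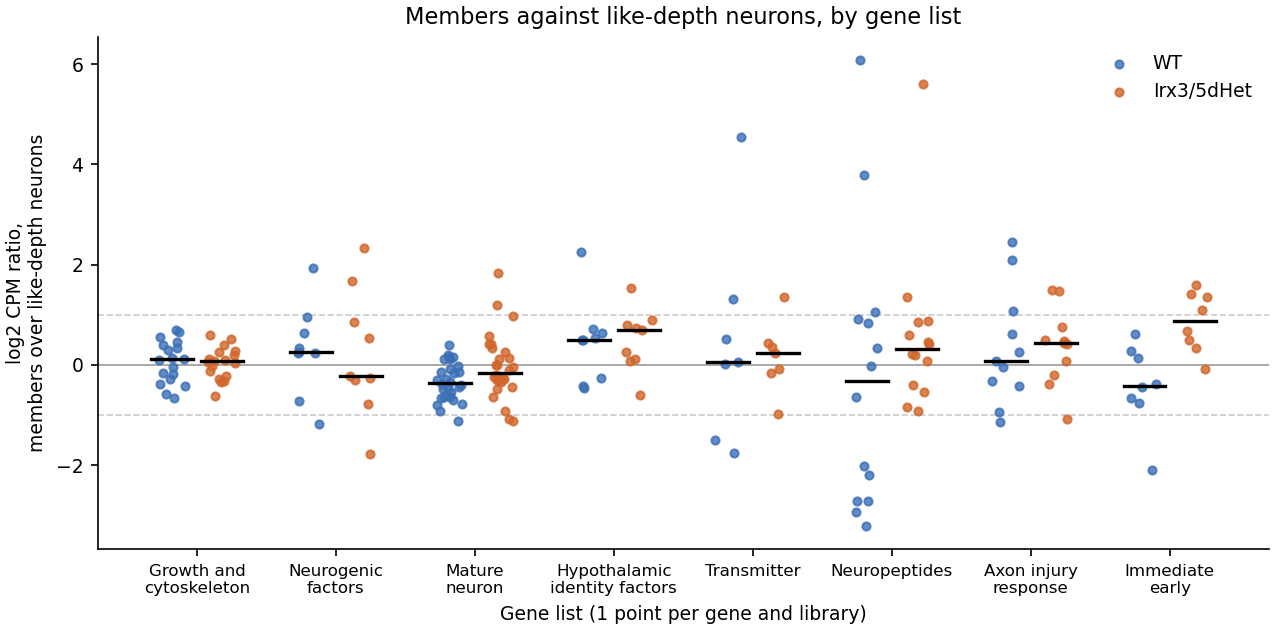
Log2 CPM ratio of the cells with 2 or more markers over like-depth neurons (y axis) for each comparable gene of 8 lists (x axis), WT and Irx3/5dHet side by side, with a black bar at each median, a grey line at 0 and dashed lines at -1 and 1. Growth and cytoskeleton genes lie between -0.65 and 0.70, and the neuropeptides spread from -3.21 to 6.08.

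Few genes passed in the same direction in both libraries, and 10 of 5653 passed in opposite directions. In all 7 genes were higher (0.124% of 5653): Ghrh, Epcam, Zfp36l1, Hspb1, Mt2, Th and Mnat1. Only L3mbtl2 was lower in both (0.0177%). Mnat1, a subunit of the kinase that phosphorylates RNA polymerase II and cyclin-dependent kinases, had 9 UMIs in 8 cells against 1 in WT and 27 in 15 cells against 13 in Irx3/5dHet (log2 2.68 and 1.03). L3mbtl2, a Polycomb group protein, had 2 against 11 and 2 against 10 (log2 -2.19 and -2.06).

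In the other 6 genes, over 50% of the UMIs lay in 1 cell in at least one library. All 33 WT and 61 of 72 Irx3/5dHet UMIs of Ghrh came from 1 cell each, against 0 and 1 in like-depth neurons. Set against a floor of 3 UMIs, the WT sum of Ghrh gives a bound of 11.1-fold, without counting error. Epcam had 31 of its 39 WT UMIs and 34 of its 38 Irx3/5dHet UMIs in 1 cell each, against 1 and 0. Of the 143 Irx3/5dHet UMIs of the metallothionein Mt2, 113 were in the dividing cell. Th, the rate-limiting enzyme of dopamine synthesis, had 11 UMIs in 3 WT cells against 0, and 21 in 3 Irx3/5dHet cells against 8. Without the cells with 2 or more markers of another class, none of the 7 higher genes passed.

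Synpr, which encodes the vesicle protein synaptoporin, had 22 UMIs against 6 in WT and 16 against 6 in Irx3/5dHet (log2 1.81 and 1.35), where the second interval included 0. It is named because other settings called it, after its values were seen.

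The genotypes were compared within the 72 cells, with log2 ratios of Irx3/5dHet over WT, and the same ratio in like-depth neurons beside each. Of 6887 genes with 10 or more UMIs, 316 (4.59%) were higher and 411 (5.97%) lower in the Irx3/5dHet cells by the same rule. In the like-depth neurons it was 224 (3.37%) and 357 (5.38%) of 6639. Over 50% of the UMIs came from 1 cell in 61 of the 316 and 33 of the 411 genes. The 5 immature markers, as genes of the rule, were not counted. Of them Cd24a had 64 UMIs in Irx3/5dHet and 18 in WT cells, and 42 of the 64 lay in the 4 cells with ependymal markers. A difference between the pools cannot be told apart from one between the genotypes.

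Neuropeptides were the list that stood highest in the Irx3/5dHet cells, apart from the cell type lists and cell division. Of 18 compared, 9 passed as higher and 1 as lower. Their median log2 ratio was 1.47, the same with Vip held at its bound, against -0.24 in like-depth neurons, where 5 of 16 passed as higher and 1 as lower. Npy had 539 UMIs in 17 Irx3/5dHet cells and 51 in 2 WT cells (log2 2.89), and 474 against 482 in like-depth neurons. Only 4 Irx3/5dHet cells (177, 173, 89 and 80 UMIs) and 1 WT cell had 5 or more UMIs of Npy, against 5 and 5 like-depth neurons. Its WT sum came almost whole from 1 cell with 50 UMIs. In 6 of the 9 higher genes over 50% of the Irx3/5dHet UMIs lay in 1 cell. Vip had 49 UMIs in 4 Irx3/5dHet cells and 0 in WT cells, and 0 against 1 in like-depth neurons. Set against a floor of 3 UMIs, the Irx3/5dHet sum of Vip gives a bound of 11.6-fold, without counting error. The exact interval of its log2 ratio starts at 3.18. Pomc had 232 of its 244 Irx3/5dHet UMIs in 1 cell, against 17 in WT cells. A single cell in each case held 57 of 59 UMIs of Tac2, 174 of 256 of Gal, 166 of 292 of Agrp and 54 of 79 of Penk, and the dividing cell held 67 of 79 of Cck. Vgf, a secreted granule protein of peptide neurons, had 65 UMIs in 14 Irx3/5dHet cells and 1 in WT cells, with 38 against 20 in like-depth neurons.

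Cilium genes were also higher in the Irx3/5dHet cells. Ccdc153 had 48 UMIs in 5 cells against 0 in WT (11.3-fold over a floor of 3 UMIs, interval from log2 3.15). Tmem212 had 52 in 5 cells against 2. Cfap45 had 34 UMIs in 6 cells against 0 (8.03-fold over the same floor, interval from log2 2.63), and Mns1 32 in 7 cells against 1. Of the 6 compared ependymal markers 5 passed as higher and 1 as lower (log2 -1.77). In the like-depth neurons none of these 4 genes passed, with sums of 5 UMIs or fewer in each library. The summed ependymal markers were 175 UMIs in Irx3/5dHet and 24 in WT cells, and the 4 cells with 5 to 7 such markers were all in Irx3/5dHet. They held 47 of the 48 UMIs of Ccdc153 and 51 of the 52 of Tmem212.

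Among the named genes, 3 were higher in both the 72 cells and the like-depth neurons. Atp5g1, a subunit of mitochondrial ATP synthase, had 92 UMIs against 11 (log2 2.51) and 111 against 21 (1.88). The ribosomal protein gene Rpl26 had 92 against 11 (2.51) and 106 against 11 (2.72), and Cxx1c had 44 against 3 and 34 against 4. Copies of such genes elsewhere in the genome could take part of their reads, and no source used here gives the setting for such reads. Whether this bears on the difference between the libraries was not tested.

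Genes lower in the Irx3/5dHet cells were also of both kinds. Sez6, a dendrite membrane protein, had 12 UMIs against 54 (log2 -2.62) and 17 against 100 in like-depth neurons (-3.01). The unnamed gene models AC159139.1, AC105950.1 and AL591207.1 were lower in both as well. Cryab, a small heat shock protein, had 0 UMIs against 18 in 8 WT cells, with 3 against 4 in like-depth neurons. Nell1, a secreted protein, had 1 against 16 in 11 cells, with 12 against 8. Ppfibp1 had 2 against 21, Fam172a 0 against 11 and the stress-response factor Cebpd 0 against 11, and none of these passed in like-depth neurons. The myelin gene Mbp had 13 against 43, of which 19 were in 1 WT cell. The summed oligodendrocyte markers were 42 UMIs in Irx3/5dHet and 234 in WT cells, and their part in these results was not tested.

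Immediate early genes were lower in the Irx3/5dHet pool in both sets. Of 11 compared in the 72 cells 4 passed as lower, and the median log2 ratio was -1.03. In like-depth neurons 8 of 9 were lower, with a median of -2.12. Fos had 77 UMIs against 112 (log2 -1.03) and 55 against 148 in like-depth neurons (-1.91), and Npas4, an activity-dependent factor of neurons, had 16 against 29 and 6 against 19. Growth and cytoskeleton genes had a median of -0.18, with 1 of 20 lower, the collapsin response gene Dpysl5 (3 UMIs against 10). In like-depth neurons their median was -0.04, and over all genes the medians were -0.05 and 0.01.

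The targeted genes gave too few UMIs to check the genotype here. Irx3 was detected by 1 UMI in an Irx3/5dHet cell and by none in WT cells, and Irx5 by none in either. These counts lie under the fixed floor of 3 UMIs and do not show absence.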

How the data were processed

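Both libraries' deposited tables give whole-number UMI counts for every gene in every barcode. Per the submitters' processing notes, the tools were STAR 2.6.0b, Picard, bcl2fastq and Seurat 3 with build mm10; annotation, strand setting and multi-mapping are not stated. The authors also deposited a merged table on a natural log scale (1 plus the count per 10000 UMIs was logged, judging from its values), from which only the list of retained barcodes was used, for an alternative.

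The tables held 2800 WT barcodes (4426817 UMIs) and 1800 Irx3/5dHet barcodes (2974060 UMIs), of which 2405 and 1484 were kept. No doublet caller was run. Members and gene lists were chosen with earlier results of these data known. Each member was paired without replacement with 1 neuron of 0 or 1 marker within 20% in UMIs. Sums were scaled to CPM (counts per 1000000), and ratios carry exact conditional binomial, shares exact Clopper-Pearson and counts exact Poisson 95% intervals. A gene was called at a log2 ratio of 1 or more in size with an interval that leaves out 0. Named genes were the 12 called in each direction with the largest smaller ratio of both libraries, and for genotype the 10 in each direction whose interval lay farthest from 0. Genes of the rule were left out of the calls. Gm and Rik models and genes with over 50% of the UMIs in 1 cell were left out of that naming, and genes of the lists were named beside them. Genes named because they passed in both libraries, and members described singly, were chosen after their values were seen. Calcr, a receptor, was left out of the neuropeptides. The limits of 5 neuropeptide UMIs and of 4 class markers were set after the data were seen. Analyses ran in Python 3.11.15 with numpy 2.4.6, scipy 1.17.1, pandas 2.3.3 and matplotlib 3.10.9. The calls were also run on simulated Poisson counts. Those counts held no spread between cells, so that run cannot speak to calls carried by 1 cell. Alternatives changed the marker rule, depth matching, cell sets, UMI minimum and scaling. Some genes of the lists are not reported here.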

Additional observations from a re-analysis of the deposited data

Results flagged for a closer look

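Btg2, an immediate early gene that restrains cell division, passed in opposite directions in the 2 libraries. In WT it had 4 UMIs in 4 cells with 2 or more markers against 19 in 8 like-depth neurons (log2 ratio -2.10), and in Irx3/5dHet 16 in 9 cells against 5 in 4 (log2 ratio 1.59). It was the only gene of the lists among 10 such genes of 5653. The difference between the libraries was not tested.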

How the results depend on the processing

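No paired analysis was possible because each genotype has 1 pooled library. The share of neurons with 2 or more markers was 3.84% in WT and 5.98% in Irx3/5dHet. It fell to 0.248% and 0.729% with 3 of the 5 markers, to 1.12% and 2.77% without Sox11, to 1.24% and 2.48% without Sox4, and to 0.888% and 1.22% in neurons thinned to 1000 UMIs. In Irx3/5dHet it was 4.08% without Cd24a and 4.23% without cells with 2 or more markers of another class.

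Genes higher (7) and lower (1) than in like-depth neurons in both libraries became 18 and 12 against all other neurons, 2 and 4 without cells with 2 or more markers of another class, 4 and 3 without the 5% deepest cells, 1 and 0 with 3 markers, and 3 and 0 at 30 UMIs. Of the 7, none was among those 2, 4 or 1. Lower genes were 7 with 2 matched neurons, 6 against neurons with 0 markers and 4 at 5 UMIs. Chosen after seeing the data, 3 or more neuron genes gave 0 lower genes, and leaving out cells with 3 or more markers of another class gave 1 higher and 2 lower.

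List medians (log2) moved as follows. For growth and cytoskeleton genes WT gave 0.29 against all other neurons, -0.16 without cells with 2 markers of another class, -0.10 without those with 3, and -0.000216 without the deepest cells. Irx3/5dHet gave -0.0244 with 2 matched neurons, -0.0700 against all other neurons, -0.0109 against neurons with 0 markers, -0.0157 by mean of per-cell CPM, -0.00887 without cells with 2 markers of another class and -0.0893 with 3 markers. For neurogenic factors WT gave -0.47 against all other neurons, -0.10 by mean CPM and -0.55 without cells with 2 markers of another class. Irx3/5dHet gave 0.28 with 2 matched neurons, 0.31 without those cells and 0.73 without the deepest. With 3 markers no neurogenic factor could be compared. For mature neuron genes WT gave -0.24 with 2 matched neurons, -0.27 against all other neurons, -0.20 against neurons with 0 markers, -0.00203 without cells with 2 markers of another class, -0.15 without those with 3, and -0.71 with 3 markers. Irx3/5dHet gave 0.0276 by mean CPM, 0.30 and -0.0157 without cells with 2 and 3 markers of another class, and 0.14 without the deepest. The cause was not tested.

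Genotype counts within the cells (316 higher, 411 lower) were 115 and 151 without cells with 2 markers of another class, 182 and 273 without those with 3, 53 and 56 with 3 markers, and 128 and 150 at 30 UMIs. Totals without mitochondrial, ribosomal and Gm genes gave 276 and 484. Mt2 turned to -0.10 in WT with 2 matched neurons. In Irx3/5dHet it turned to -1.53 without the deepest cells, -1.85 with 3 markers and -4.64 without cells with 3 markers of another class. Th turned to -0.39 in Irx3/5dHet without the deepest cells, and Mbp to 0.82 between genotypes with 3 markers. Another 74 values stayed within the share's interval, the standard error over a list's genes, or 1.5 times the count. For genes named singly, 219 values kept their call and 85 kept only their direction.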

Other observations

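Outside the comparisons above, the gene Synpr passed as higher in both libraries when 2 neurons were matched per cell, when other neurons had 0 markers, when cells had at least 3 neuron genes, and when cells with 3 or more markers of another class were left out. With the matching of the report its Irx3/5dHet ratio of 1.35 had an interval that included 0.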
